A study of Saccharomyces cerevisiae with 279 samples.

Results

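The mRNAs of the trehalose pathway of budding yeast (Saccharomyces cerevisiae) were followed through heat shock, azide, ethanol, DTT, cycloheximide and the depletion of 2 translation initiation factors. Trehalose is a glucose disaccharide that yeast stores and breaks down again, and which protects proteins and membranes under stress. The pathway was taken as 7 genes, 4 for synthesis (TPS1, TPS2, TPS3, TSL1) and 3 for breakdown (NTH1, NTH2, ATH1). They were picked by their symbols in the gene annotation deposited with the data and by no measured value. Earlier results of these data were known when they were picked. The members are 7 of 5906 nuclear protein-coding genes. All 7 passed the filters on low counts in each of the 40 comparisons of abundance, the 35 comparisons of sedimentation and the 5 comparisons of ribosome binding.

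TPS1 (YBR126C) codes for the synthase, which joins UDP-glucose and glucose-6-phosphate into trehalose-6-phosphate. It lies on the minus strand at chrII:488905-490392 in build R64, and its transcript was estimated at 1711 nt. TPS2 (YDR074W) codes for the phosphatase that releases trehalose, at chrIV:593893-596583 on the plus strand, with a transcript of 3039 nt. TPS3 (YMR261C) and TSL1 (YML100W) are paralogs that code for regulatory subunits of the same complex. TPS3 lies at chrXIII:790205-793369 on the minus strand (3398 nt), and TSL1 at chrXIII:70624-73920 on the plus strand (3453 nt). NTH1 (YDR001C) codes for the neutral trehalase of the cytosol, which is switched on by protein kinase A and by 14-3-3 proteins, at chrIV:450220-452475 on the minus strand (2600 nt). NTH2 (YBR001C) is its paralog, at chrII:238941-241283 on the minus strand (2551 nt). ATH1 (YPR026W) codes for the acid trehalase, which is needed for growth on trehalose supplied from outside, at chrXVI:615379-619014 on the plus strand (3807 nt). The coordinates are those of the annotated gene, and the lengths include estimated untranslated regions. In the labels deposited with the data, 6 of the 7 are targets of Msn2 and Msn4, the general stress transcription factors, and NTH2 is the exception. Reads shared within the paralog pairs NTH1 and NTH2, or TPS3 and TSL1, could be split between them by the counting.

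2 methods were applied to whole-cell lysates of exponentially growing cultures. In Sed-seq, RNA was sequenced from the lysate (Total) and from the supernatant and pellet of a spin at 20000 g in a buffer with EDTA, which takes ribosomes apart, and pSup is the fraction of a transcript that stays in the supernatant. In Polysome-seq, RNA was sequenced from the lysate and from ribosome-free, monosome and polysome fractions of a gradient, and ribosome occupancy is the bound fraction. There were 77 Sed-seq and 14 Polysome-seq lysates, with 2 lysates, labelled as biological replicates, in each group tested.

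Except where a strain is named, the cells were BY4741 at 30°C in synthetic complete dextrose medium. For Sed-seq, cells were pelleted and the pellet was held in a water bath at 42°C or 46°C for 10 min, against cells kept at 30°C, and a further experiment set 46°C against 30°C with added spike-in RNA. For Polysome-seq, cells were filtered and put in medium already at 42°C or 46°C for 10 min, so that the heat reached them in another way. Azide was given at 0.5% or 0.8% for 30 min at pH 6.8 against water, ethanol at 5%, 7.5%, 10% or 15% for 15 min against medium alone, and DTT at 10 mM for 15 min against a mock. Cycloheximide (CHX), which stops elongating ribosomes, was given at 100 µg/mL for 10 min before 30°C, 42°C or 46°C, against cells without it. Strains yJB042 and yHG038, in which eIF3b or eIF4E carries an auxin-induced degron, received β-estradiol for 75 min and auxin for 2 h in rich medium before 30°C, 42°C or 46°C, against a mock of DMSO. A further 7 reporter strains (yHG005 to yHG008, yHG010, yHG026 and yHG027), with a fluorescent reporter inserted at LEU2, gave 1 untreated lysate each at 30°C and entered no comparison. Each degron strain is a single construct, and the depletion acts on the protein, so the factor's own mRNA is no check of it. The samples are bulk lysates: in these, fewer cells of a type and less RNA per cell cannot be told apart.

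Total libraries held 2426960 to 36895321 estimated counts over all transcripts, nuclear mRNAs and others, with a median of 11696177 over 91 libraries. The members were well covered, with medians of 582 estimated counts for NTH2 and 620 for ATH1, the least covered, and of 10036 for TSL1. Levels are given as RPKM scaled within each experiment (TMM), so they are shares of the mRNA pool, and levels of different experiments stand side by side only. Differences are log2 fold changes ± SE with edgeR's Benjamini-Hochberg adjusted p over all transcripts tested, and a call is an adjusted p under 0.05. Scaling to library size in place of TMM moved the median transcript most after eIF3b depletion (0.85 to 0.90 on the log2 scale), with CHX (0.54 at 30°C and 0.57 at 46°C), in Polysome-seq at 42°C (-0.52) and with 0.5% azide (0.38), so changes there are relative to the other mRNAs. In an exact permutation test 2 lysates against 2 cannot give a p below 0.333, so the tests rest on the fits across all transcripts.

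In the 30°C lysates of the Sed-seq heat experiment, the synthase mRNA TPS1 was the most abundant member, at 153 and 168 RPKM. TPS2 (82.04 and 84.5), TPS3 (78.7 and 82.04) and NTH1 (80.5 and 78.04) followed and did not differ beyond their spread. TSL1 lay below them at 57.8 and 59.6 RPKM. ATH1 (12.2 and 12.2) and NTH2 (11.6 and 14.3) were the lowest and overlapped. The starting level differed between experiments. Over the 30°C control groups of 14 experiments, the mean level of TSL1 ranged 20.5-fold (51.4 to 1055 RPKM, median 219), that of TPS2 8.42-fold and that of TPS1 6.15-fold. The range was 2.23-fold for TPS3, 3.33-fold for NTH1, 3.42-fold for NTH2 and 3.96-fold for ATH1. All 7 were highest in the mock lysates of the 5% and 10% ethanol experiment, whose cells had been resuspended in medium. The mock cells of the 7.5% and 15% ethanol experiments were handled in the same way. The 4 synthesis mRNAs together had 2625 and 2409 RPKM in the first, 1592 and 1487 in the 7.5% and 866 and 849 in the 15% mock lysates. The cause of these differences was not tested. TSL1 thus had the widest and TPS3 the narrowest range over these control groups. The groups also differed in strain, medium and library preparation, so the ranges do not rank the members by variability. Within the 1 experiment with 7 reporter strains TPS1 ranged most (1.76-fold) and NTH2 least (1.16-fold), with TSL1 at 1.48-fold.

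Heat at 42°C raised the mRNAs of the synthase complex and of the neutral trehalase, and TSL1 far more than the others. TSL1 had 57.8 and 59.6 RPKM at 30°C, 360.0 and 381 at 42°C, and 90.7 and 83.5 at 46°C. TPS2 had 82.04 and 84.5 RPKM at 30°C, 202 and 212 at 42°C, and 89.7 and 90.2 at 46°C. TPS1 had 153 and 168 RPKM at 30°C, 253 and 270.4 at 42°C, and 162 and 170.1 at 46°C. For these 3 the 42°C lysates lay above all others, and the 46°C lysates of TPS1 overlapped with those at 30°C. At 42°C against 30°C, TSL1 rose by 2.66 ± 0.05 (adjusted p = 3e-09), TPS2 by 1.31 ± 0.04 (5.2e-08), TPS1 by 0.71 ± 0.06 (4.8e-05) and NTH1 by 0.48 ± 0.04 (6.3e-05). TPS3 rose by 0.19 ± 0.05 (0.038), a call that was lost when any single one of the 4 lysates was left out (0.15 to 0.25, adjusted p 0.069 to 0.34) or with library size scaling (0.12, 0.11). NTH2 (0.05 ± 0.16) and ATH1 (0.17 ± 0.09) did not pass the test. So 5 of 7 members rose, where 5.98% of all transcripts tested rose.

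At 46°C against the same 30°C lysates only TSL1 was called among the 7 members, at 0.57 ± 0.05 (adjusted p = 0.00097), where 0.404% of transcripts rose. Between 46°C and 42°C, 5 of 7 members fell and 5.27% of transcripts did. TSL1 fell by 2.09 ± 0.05, TPS2 by 1.20 ± 0.04, TPS1 by 0.66 ± 0.06 and NTH1 by 0.44 ± 0.04. TPS3 fell by 0.22 ± 0.05 (adjusted p = 0.024) and was not called without lysate 1 (-0.28, 0.051) or 2 (-0.18, 0.26) of 42°C, without lysate 2 of 46°C (-0.21, 0.052) or with library size scaling (-0.18, 0.054). The summed level of the 4 synthesis mRNAs was 3.56 and 3.77 times that of the 3 trehalase mRNAs at 30°C, 6.56 and 6.99 times at 42°C, and 3.96 and 3.80 times at 46°C. The 3 comparisons share their lysates.

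**Figure D1:**
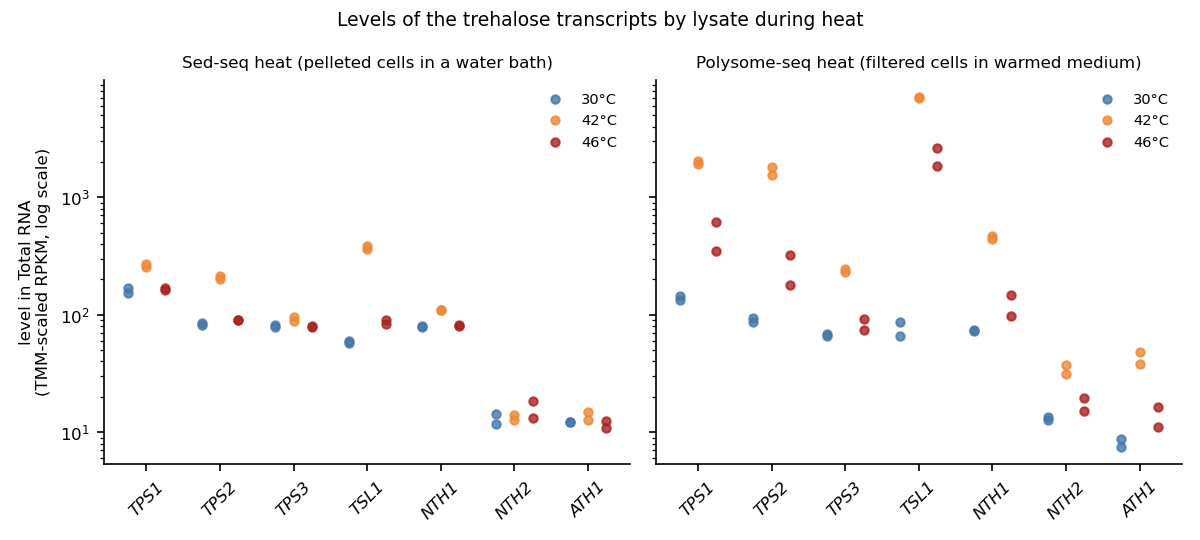
Levels of the 7 trehalose mRNAs in Total libraries (RPKM with TMM scaling, log axis) at 30, 42 and 46°C, one point per lysate, for the Sed-seq and the Polysome-seq heat experiments. TSL1 reached 360.0 and 381 RPKM at 42°C in Sed-seq and 7070.1 and 7027 in Polysome-seq, and NTH2 stayed the lowest or next to lowest member at each temperature.

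The same temperatures gave much larger changes where cells were put straight into hot medium. In the Polysome-seq lysates TSL1 had 66.2 and 86.9 RPKM at 30°C, 7070.1 and 7027 at 42°C, and 1846 and 2601 at 46°C. TPS2 had 86.3 and 94.05 RPKM at 30°C, 1538 and 1809 at 42°C, and 180.0 and 319.5 at 46°C. TPS1 had 134 and 143 RPKM at 30°C, 2051 and 1921 at 42°C, and 352 and 613 at 46°C. For these 3 members no groups overlapped, and TSL1 was the most abundant of the 7 at both high temperatures. At 42°C all 7 members rose, where 38.5% of transcripts rose: TSL1 by 6.53 ± 0.26 (adjusted p = 1.7e-07), TPS2 by 4.22 ± 0.27, TPS1 by 3.84 ± 0.25, NTH1 by 2.61 ± 0.18, ATH1 by 2.41 ± 0.19, TPS3 by 1.84 ± 0.13 and NTH2 by 1.40 ± 0.14. At 46°C, 6 of 7 rose, where 19.8% of transcripts did, led by TSL1 (4.86 ± 0.24, 2.5e-06), TPS1 (1.80 ± 0.23, 0.00065) and TPS2 (1.47 ± 0.24, 0.0022). TPS3, at 0.30 ± 0.12 (0.084), did not pass. The calls of the trehalase mRNAs at 46°C were the least firm. NTH1 (0.72 ± 0.17, 0.011) was lost without either 30°C lysate (0.74 and 0.70, adjusted p 0.078 and 0.075). NTH2 (0.42 ± 0.14, 0.044) was lost without either 30°C lysate or lysate 2 of 46°C (0.22 to 0.46, adjusted p 0.12 to 0.27) and with library size scaling (0.25, 0.15). ATH1 (0.77 ± 0.19, 0.015) was lost without lysate 1 of 30°C (0.65, 0.11) or lysate 2 of 46°C (0.45, 0.080).

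Between 46°C and 42°C in Polysome-seq, all 7 members fell, by 0.98 ± 0.14 for NTH2 to 2.75 ± 0.25 for TPS2, and 34.6% of transcripts fell. The synthesis mRNAs together stood at 3.71 and 4.12 times the trehalase mRNAs at 30°C, 20.4 and 20.97 times at 42°C, and 19.7 and 19.9 times at 46°C. In all, 6 experiments held a 46°C and a 30°C group without a drug or depletion, and TSL1 differed among them in size and in sign. It rose by 4.86 in Polysome-seq, 0.57 in the Sed-seq heat experiment and 0.54 ± 0.04 (adjusted p = 1.2e-13) in the spike-in experiment. It was 0.30 ± 0.25 in the mock cells of the CHX experiment, -0.74 ± 0.27 in those of the eIF3b experiment and -0.83 ± 0.26 in those of the eIF4E experiment, none of them called. These differences between experiments were not tested.

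In the spike-in experiment, where 28% of transcripts were called, 5 other members fell at 46°C. TPS2 had 344 and 362 RPKM at 46°C, against 447 and 439.7 at 30°C, and fell by 0.33 ± 0.04 (adjusted p = 1.1e-08). ATH1 (-0.31 ± 0.06), TPS3 (-0.26 ± 0.04), NTH1 (-0.22 ± 0.04) and NTH2 (-0.21 ± 0.06) also fell, and TPS1 (-0.09 ± 0.04, 0.066) did not pass. TPS2 fell in the mock cells of both degron strains too. In the eIF4E experiment, where 3.01% of transcripts fell, TPS2 fell by 1.39 ± 0.18 (0.00037), TPS1 by 0.64 ± 0.14 (0.02) and NTH1 by 0.52 ± 0.08 (0.0014). TPS1 was not called there without lysate 1 of 30°C (-0.52, 0.26) or without lysate 1 (-0.75, 0.053) or 2 (-0.55, 0.25) of 46°C. In the eIF3b experiment, where 1.19% fell, TPS2 fell by 1.14 ± 0.24 (0.044), a call lost without any single one of the 4 lysates (-0.95 to -1.33, adjusted p 0.075 to 0.53). With the replicate number as a block, which pairs the lysates of that experiment, 5 members were called: TPS2 (-1.13), TSL1 (-0.73), TPS1 (-0.57), NTH1 (-0.38) and TPS3 (-0.17).

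Azide, which blocks respiration, raised most of the pathway at 0.5%. TSL1 had 557 and 479 RPKM with azide, against 113.4 and 138 in mock cells, a rise of 2.04 ± 0.10 (adjusted p = 4.8e-08). TPS2 had 354 and 294 RPKM with azide, against 112.04 and 123.1 in mock cells, a rise of 1.46 ± 0.09 (2.1e-07). NTH2 had 54.9 and 43.3 RPKM with azide, against 22.7 and 25.5 in mock cells, a rise of 1.03 ± 0.12 (1.8e-05). The azide and mock lysates did not overlap for any of these. ATH1 (0.89 ± 0.10), NTH1 (0.62 ± 0.06) and TPS1 (0.39 ± 0.09, 0.0037) rose as well, and TPS3 (0.13 ± 0.07, 0.11) did not pass. Thus 6 of 7 rose, where 36.8% of transcripts did.

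At 0.8% azide the changes were smaller and 4 of 7 members rose, where 21.3% of transcripts did. TSL1 had 148 and 135 RPKM with azide, against 52.7 and 50.0 in mock cells (1.47 ± 0.07, adjusted p = 1.5e-05). TPS2 had 94.2 and 81.9 RPKM with azide, against 55.97 and 53.2 in mock cells (0.70 ± 0.08, 0.00071), and NTH2 rose by 0.53 ± 0.09 (0.0033). TPS1 rose by 0.24 ± 0.07 (0.032), a call lost without azide lysate 1 (0.18, 0.11), mock lysate 1 (0.30, 0.061) or mock lysate 2 (0.19, 0.18). The Polysome-seq lysates with 0.8% azide did not show the rise of TSL1. There TSL1 had 135 and 169.5 RPKM with azide, against 154 and 157 in mock cells (-0.03 ± 0.08, 0.75). 3 of 7 members were called in that experiment, where 44% of transcripts were. TPS3 fell by 0.29 ± 0.04 (0.00027) and TPS1 by 0.22 ± 0.05 (0.0041, lost without mock lysate 2: -0.16, 0.054). TPS2 rose by 0.19 ± 0.06 (0.017, lost without azide lysate 2: 0.11, 0.11, or mock lysate 2: 0.14, 0.16).

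Ethanol at 5% raised all 7 members, and at 10% lowered all 7. In the experiment with 2 doses, TSL1 had 1085 and 1024 RPKM in mock cells, 2808 and 2882 at 5% ethanol, and 273 and 297 at 10%. TPS2 had 485 and 434 RPKM in mock cells, 1121 and 1142 at 5%, and 127 and 135 at 10%. ATH1 had 33.6 and 31.01 RPKM in mock cells, 52.8 and 54.1 at 5%, and 10.8 and 11.6 at 10%. For each member the 5% lysates lay above and the 10% lysates below the mock lysates without overlap. At 5% all 7 rose, by 0.72 ± 0.06 (ATH1) to 1.43 ± 0.06 (TSL1, adjusted p = 1.6e-09), where 33.8% of transcripts rose. At 10% all 7 fell against the same mock lysates, by 0.75 ± 0.06 (TPS3) to 1.89 ± 0.06 (TSL1, 1.3e-09), where 26.7% fell. Set directly against 5%, 10% ethanol lowered all 7, where 39.6% of transcripts fell. TSL1 fell by 3.32 ± 0.07 and TPS2 fell by 3.12 ± 0.07. The synthesis mRNAs together stood at 8.01 and 7.95 times the trehalase mRNAs in mock cells, 10.99 and 11.2 times at 5% and 5.99 and 6.05 times at 10%.

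At 7.5% ethanol members of both branches were called in either direction in Sed-seq. TSL1 had 1616 and 1678 RPKM with ethanol, against 617 and 526 in mock cells (1.53 ± 0.09, adjusted p = 6.3e-07). TPS2 rose by 1.13 ± 0.08 (3e-06) and TPS1 by 0.60 ± 0.07 (0.00011), while NTH1 (173 and 191 RPKM with ethanol, 176 and 174 in mock cells) did not pass. In total 6 of 7 members were called, where 58.6% of transcripts were. The other 3 each rested on a single lysate: TPS3 fell by 0.27 ± 0.08 (0.022, without ethanol lysate 1 -0.14, 0.085), ATH1 fell by 0.25 ± 0.07 (0.017, without mock lysate 1 -0.16, 0.27) and NTH2 rose by 0.31 ± 0.07 (0.0051, without mock lysate 2 0.23, 0.083). Scaling to library size, which moved the median transcript by -0.28 here, gave 0.03 (adjusted p = 0.76) for NTH2, a called -0.23 for NTH1, -0.55 for TPS3, -0.53 for ATH1 and 0.32 for TPS1. The synthesis mRNAs stood at 12.8 and 13.1 times the trehalase mRNAs with ethanol, against 6.62 and 6.40 times in mock cells. In Polysome-seq, 7.5% ethanol raised all 7 members, where 30.5% of transcripts rose. TSL1 had 1607 and 1501 RPKM with ethanol, against 292 and 189 in mock cells (2.69 ± 0.18, 7.3e-06), and NTH1 rose by 0.82 ± 0.09. TPS3 rose least, by 0.24 ± 0.07 (0.017), lost without lysate 2 of ethanol (0.16, 0.14) or of mock (0.20, 0.086) and with library size scaling (0.08, 0.44). At 15% ethanol, where 23.2% of transcripts were called, the changes were small: TPS2 rose by 0.23 ± 0.04 (0.00023), and TSL1 (-0.17 ± 0.04, 0.0024) and NTH2 (-0.25 ± 0.06, 0.0081) fell. These last calls were lost without mock lysate 1 (TSL1 -0.14, 0.085, and NTH2 -0.22, 0.12).

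DTT, which reduces disulfide bonds, raised 4 of 7 members slightly, where 24.9% of transcripts rose. ATH1 had 21.1 and 18.9 RPKM with DTT, against 15.8 and 14.3 in mock cells (0.40 ± 0.08, adjusted p = 0.0013), and TSL1 had 352 and 258 RPKM with DTT, against 251 and 198 in mock cells (0.44 ± 0.13, 0.015). TPS1 (0.23 ± 0.07, 0.015) was lost without DTT lysate 1 (0.10, 0.18), and NTH1 (0.17 ± 0.06, 0.024) without DTT lysate 1 (0.10, 0.23) or mock lysate 2 (0.14, 0.070). DESeq2 called TPS1 and ATH1 only. TPS2, TPS3 and NTH2 did not pass, with estimates between -0.08 and 0.05.

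With CHX at 30°C, TPS3 and NTH1 were called lower relative to the other mRNAs. These are 2 of 7 members, a share near that of all transcripts, of which 29.1% fell. TPS3 had 115.4 and 99.9 RPKM with CHX, against 144 and 136 without it (-0.38 ± 0.10, adjusted p = 0.013). NTH1 had 164 and 152 RPKM with CHX, against 188 and 191 without it (-0.27 ± 0.07, 0.013). Scaling to library size turned both signs (TPS3 0.15, NTH1 0.27). The calls were lost without CHX lysate 2 (TPS3 -0.27, 0.088, and NTH1 -0.20, 0.11), without mock lysate 1 for TPS3 (-0.35, 0.067) and without mock lysate 2 for NTH1 (-0.25, 0.064). With the replicate number as a block 5 members were called at 30°C, adding TSL1 (-0.38, 3.3e-05), TPS1 (-0.22, 0.002) and ATH1 (0.22, 0.022). At 46°C edgeR called 0 of 7 members between CHX and mock, where 56.4% of transcripts were called. None had an unadjusted p under 0.05, and DESeq2 called TSL1 (-0.57). The block gave 4 calls there: TSL1 (-0.55, 1.3e-06), TPS2 (0.30, 0.002), NTH2 (0.24, 0.032) and TPS3 (-0.14, 0.033).

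The step to 46°C itself gave 0 of 7 calls in the mock cells of the CHX experiment by edgeR (1.02% of transcripts called) and 0 by DESeq2, with NTH1 and TPS2 at an unadjusted p under 0.05. TSL1 had 793 and 578 RPKM at 46°C, against 619 and 494 at 30°C, so the groups overlapped. The block gave 3 calls: TPS2 (-0.45, adjusted p = 0.0018), TSL1 (0.29, 0.0061) and TPS3 (-0.22, 0.034). With CHX present, TSL1 had 548 and 394 RPKM at 46°C, against 523 and 347 at 30°C. There edgeR called 0 of 7 (0.143% of transcripts), DESeq2 and the block 0, and no member had an unadjusted p under 0.05. Between the heat responses with and without CHX the difference gave 0 of 7 calls by edgeR (0.0357%), DESeq2 and the block alike, and 0 at an unadjusted p under 0.05.

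Depletion of eIF3b, a core subunit of the factor that brings mRNAs to the small ribosomal subunit, raised the 3 trehalase mRNAs and TPS1 relative to the other mRNAs at 30°C. NTH2 had 85.7 and 94.3 RPKM after depletion, against 23.6 and 26.8 in mock cells (1.83 ± 0.10, adjusted p = 6.1e-09). TPS1 had 616 and 751 RPKM after depletion, against 222 and 305 in mock cells (1.37 ± 0.20, 4.9e-05). NTH1 had 218 and 263 RPKM after depletion, against 99.4 and 119 in mock cells (1.14 ± 0.15, 2.3e-05). ATH1 had 27.01 and 31.6 RPKM after depletion, against 11.4 and 15.0 in mock cells (1.14 ± 0.21, 0.00037). The groups did not overlap for any of these 4. TSL1 had 178 and 261 RPKM after depletion, against 179 and 252 in mock cells (0.02 ± 0.27), and TPS2 (-0.21 ± 0.24) and TPS3 (0.20 ± 0.12) did not pass either. So 4 of 7 members rose, where 41.8% of transcripts did. With the block, TPS2 (-0.21, 0.00085) and TPS3 (0.20, 0.00069) were called too. With scaling to library size all 7 were called, TPS2 at 0.64 (0.026), TSL1 at 0.87 (0.0097) and TPS3 at 1.05.

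The same 4 mRNAs rose after eIF3b depletion at 42°C and 46°C. At 42°C 5 of 7 members rose, where 42.7% of transcripts did: TPS1 by 1.62 ± 0.20, NTH2 by 1.62 ± 0.10, ATH1 by 1.41 ± 0.22, NTH1 by 1.36 ± 0.15 and TPS3 by 0.34 ± 0.12 (adjusted p = 0.019). At 46°C 6 of 7 rose, where 42.9% did: TPS1 by 1.87 ± 0.21, NTH2 by 1.77 ± 0.10, NTH1 by 1.47 ± 0.15, ATH1 by 1.23 ± 0.21, TPS2 by 0.69 ± 0.24 (0.019) and TPS3 by 0.29 ± 0.12 (0.038). TPS3 was lost without lysate 2 of the depleted group (42°C 0.29, 0.093, and 46°C 0.21, 0.17) or lysate 1 of mock (0.24, 0.16, and 0.19, 0.24), and TPS2 at 46°C without the same lysates (0.43, 0.15, and 0.51, 0.14). The block added TPS2 at 42°C (0.24, 0.00035) and TSL1 at 46°C (0.50, 1.5e-05). The synthesis mRNAs stood at 3.21 and 3.47 times the trehalase mRNAs after depletion at 30°C, against 5.09 and 5.63 times in mock cells. At 42°C the ratios were 3.67 and 4.02 after depletion, against 6.30 and 6.45 in mock cells.

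In these cells the fit without the block called few members for heat itself, and the block, which pairs the lysates, called more. At 46°C in mock cells the block called 5 of 7, and the fit without it 1, where 1.19% of transcripts fell. At 42°C against 30°C, TSL1 had 317 and 402 RPKM against 178 and 261 after depletion (0.71 ± 0.26), and 329.8 and 418 against 179 and 252 in mock cells (0.79 ± 0.27). edgeR and DESeq2 called 0 of 7 in either state (1.24% of transcripts called after depletion, 0.976% in mock), with TSL1 alone at an unadjusted p under 0.05. The block called TSL1 in both (0.73, adjusted p = 1.1e-06 after depletion, and 0.81, 7.8e-07 in mock), and TPS2 in mock cells (-0.46, 7.9e-06). At 46°C after depletion edgeR and DESeq2 called 0 of 7 (0.837% of transcripts called, none of the 7 at an unadjusted p under 0.05), and TPS2 with the block (-0.25, 0.005). The difference between the depleted and mock heat responses gave 0 of 7 calls at 42°C (0.401%) and at 46°C (0.157%) by edgeR and DESeq2, with no member and TPS2 (0.90 ± 0.34) at an unadjusted p under 0.05. With the block it was called for TPS2 at 42°C (0.45, 0.00088), and at 46°C for TPS2 (0.88, 2.3e-07), TPS1 (0.49, 0.00022), NTH1 (0.34, 0.0059) and TSL1 (0.48, 0.026).

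Depletion of eIF4E, the cap-binding factor, gave smaller changes in which NTH1 stood first. NTH1 had 201 and 193 RPKM after depletion at 30°C, against 105.05 and 97.1 in mock cells (0.97 ± 0.07, adjusted p = 1.6e-07). NTH2 had 41.5 and 36.4 RPKM after depletion, against 24.002 and 23.2 in mock cells (0.73 ± 0.10, 3.3e-05). TPS1 rose by 0.56 ± 0.13 (0.0024), TSL1 by 0.82 ± 0.25 (0.013), ATH1 by 0.40 ± 0.13 (0.02) and TPS3 by 0.33 ± 0.08 (0.0034). TPS2 (0.42 ± 0.17, 0.051) missed the threshold, so 6 of 7 rose, where 30.7% of transcripts did. With the replicate number as a block all 7 rose, TPS2 by 0.42 (1.7e-06). Leaving out depleted lysate 1 lost TSL1 (0.55, 0.13), ATH1 (0.28, 0.16) and TPS3 (0.21, 0.062), and leaving out mock lysate 2 lost TSL1 (0.61, 0.12) and ATH1 (0.28, 0.16). NTH1 and NTH2 rose at the higher temperatures as well, by 0.99 ± 0.08 and 0.52 ± 0.10 at 42°C and by 1.07 ± 0.08 and 0.53 ± 0.10 at 46°C. Besides them, TPS1 (0.39 ± 0.14, 0.023) and TSL1 (0.78 ± 0.25, 0.016) rose at 42°C (4 of 7, where 29.8% of transcripts rose), and TSL1 (0.70 ± 0.26, 0.03) at 46°C (3 of 7, where 29.5% rose). None of these 3 calls held without depleted lysate 1 (TPS1 0.21, 0.23; TSL1 0.51, 0.13, and 0.34, 0.31) or mock lysate 2 (0.25, 0.22; 0.65, 0.11, and 0.42, 0.26) of the temperature.

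After eIF4E depletion, 46°C lowered 5 of 7 members against 30°C, where 5.4% of transcripts fell. TPS2 had 77.8 and 61.4 RPKM at 46°C, against 288 and 230.1 at 30°C (-1.90 ± 0.18, adjusted p = 1.3e-05). TPS1 (-0.90 ± 0.13), TPS3 (-0.48 ± 0.08) and NTH1 (-0.42 ± 0.07) fell as well, and TSL1 (-0.94 ± 0.25, 0.038) was lost without lysate 1 of 30°C (-0.67, 0.29) or lysate 2 of 46°C (-0.61, 0.27). At 42°C TPS2 (-0.77 ± 0.17, 0.021) and TPS3 (-0.32 ± 0.08, 0.04) fell after depletion, 2 of 7, where 2.85% of transcripts fell. TPS2 was lost without lysate 1 of 30°C (-0.59, 0.20) or lysate 2 of 42°C (-0.53, 0.21), and TPS3 without these (-0.21, 0.34, and -0.25, 0.30) or lysate 1 of 42°C (-0.37, 0.071). In mock cells 0 of 7 were called at 42°C by edgeR and DESeq2 (2.05%), with NTH1, TPS2 and TSL1 at an unadjusted p under 0.05. By the DESeq2 estimates NTH1 (-0.27) and TPS2 (-0.60) were lower and TSL1 (0.67) was higher. With the block 4 were called: TPS2 (-0.59, adjusted p = 1.2e-06), TSL1 (0.69, 1.8e-06), NTH1 (-0.26, 0.0085) and TPS1 (-0.18, 0.044). Library size scaling called NTH1 (-0.32, 0.042). Between the 2 states the difference gave 0 of 7 calls at 42°C (0%) and at 46°C (0.0363%) by edgeR and DESeq2, and none at an unadjusted p under 0.05. With the block it was called for TPS2 at 46°C (-0.51, 0.008) and for no member at 42°C.

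**Figure D2:**
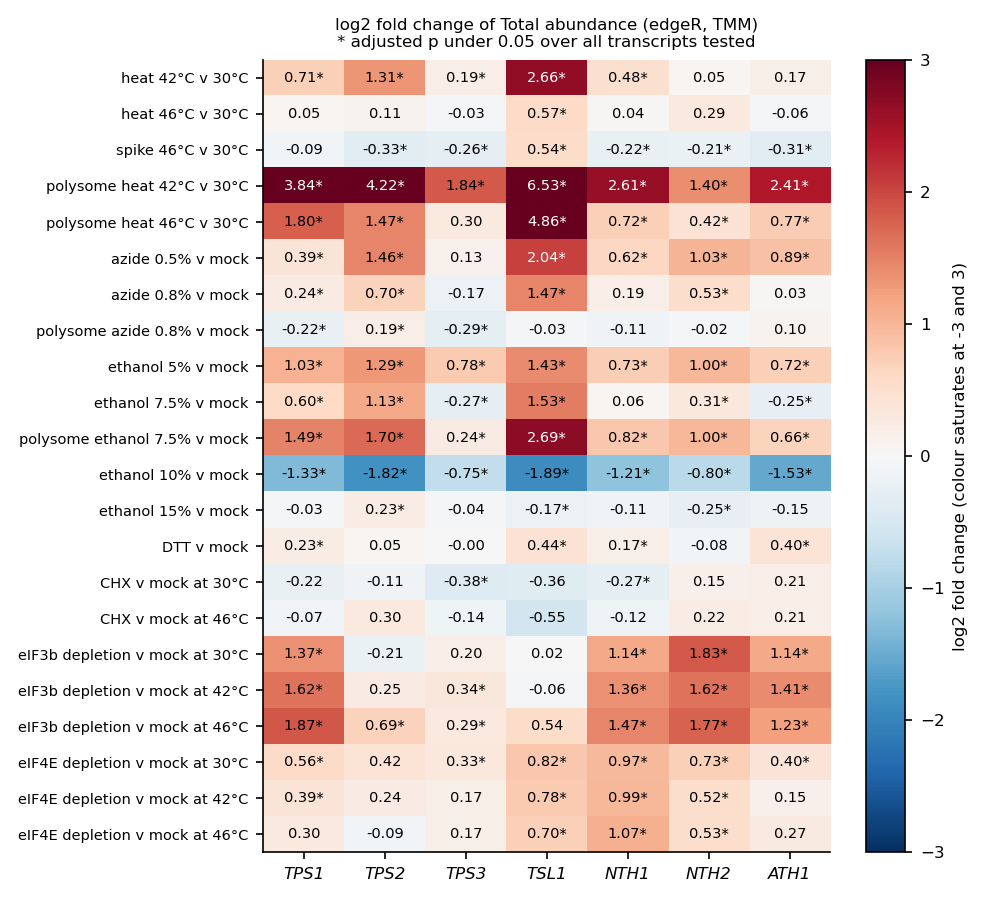
Log2 fold changes of the 7 mRNAs (columns) in Total libraries for each treatment against its own control lysates (rows), with the edgeR estimate in each cell, an asterisk where it was called, and a colour scale that ends at -3 and 3. TSL1 runs from -1.89 at 10% ethanol to 6.53 in Polysome-seq at 42°C, and after eIF3b depletion at 30°C NTH2, TPS1, NTH1 and ATH1 lie at 1.14 or above while TSL1 lies at 0.02.

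Other mRNAs of the pathway moved with it in part. Glycogen is made from the same UDP-glucose, and of 7 mRNAs of its synthesis and breakdown 5 rose at 42°C in Sed-seq (median 0.64), among them glycogen synthase GSY1 (1.96) and glycogen phosphorylase GPH1 (1.13). Of the 6 mRNAs that supply glucose-6-phosphate and UDP-glucose, 5 rose (median 0.65), led by phosphoglucomutase PGM2 (1.92) and hexokinase HXK1 (1.20). Of 7 mRNAs listed as trehalase regulators 3 rose, among them DCS2 (1.21). In Polysome-seq at 42°C, 6 glycogen mRNAs rose and 1 fell (median 3.86), with GSY1 at 5.47, HXK1 at 5.37, PGM2 at 4.96 and DCS2 at 3.77. At 10% ethanol all 7 glycogen mRNAs fell (median -1.73), with PGM2 at -2.35 and DCS2 at -2.81, while at 5% 5 rose and 1 fell, with the branching enzyme GLC3 at 2.11. With 0.5% azide 6 of 7 glycogen mRNAs rose (median 1.75), and so did the stress factors MSN2 (1.64), MSN4 and HSF1. Of all transcripts, 5.98% rose at 42°C in Sed-seq and 38.5% in Polysome-seq at 42°C. At 10% ethanol 26.7% fell, at 5% 33.8% rose, and with 0.5% azide 36.8% rose.

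After eIF3b depletion the supply enzymes split by paralog. At 30°C PGM2 rose by 1.26 and PGM1, the minor phosphoglucomutase, fell by 2.17, and the hexokinase HXK2 fell by 3.58. DCS2 rose by 1.83 and MSN4 by 1.27, and 4 of 7 glycogen mRNAs rose, where 41.8% of transcripts did. At 42°C and 46°C after depletion all 7 glycogen mRNAs rose against mock (medians 1.96 and 2.46), where 42.7% and 42.9% of transcripts did. At 46°C PGM2 rose by 3.21 and PGM1 fell by 2.35. After eIF4E depletion at 30°C HXK2 fell by 1.88 and DCS2 rose by 1.13. There 5 of 7 glycogen mRNAs rose, where 30.7% of transcripts did.

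The patterns of the members were compared over 70 Total libraries of the Sed-seq experiments without the reporter strains, by Pearson's r of log2(TPM + 1) centred on each experiment's mean, as a description only, since libraries share experiments, depth and controls. Among the 7, r ran from 0.527 (TSL1 with NTH2) to 0.952 (TPS1 with NTH1). Of 2694 mRNAs, those most like TPS1 were the polyubiquitin gene UBI4 (0.956), TFS1 (0.954) and MRX18 (0.951), and those most like NTH1 were the pyruvate kinase PYK2 (0.967), ATG19 (0.956) and GAD1 (0.953). TSL1 was the least matched member, with the cell wall protein gene SPI1 first at 0.840. TPS2 came next, with YLR177W at 0.877, which was also among the 3 closest to TSL1 (0.794). For TPS3 (0.964) and ATH1 (0.975) the closest mRNA was the same, YGR130C. For NTH2 it was VPS8 (0.965), followed by the citrate synthase CIT1 (0.955).

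In the heat experiment most of each trehalose mRNA stayed in the supernatant at 30°C, and ATH1, the longest, stayed least. At 30°C pSup was 0.894 and 0.887 for TPS1, 0.833 and 0.837 for TPS2, 0.792 and 0.804 for TSL1, and 0.687 and 0.684 for ATH1, against a median of 0.885 and 0.883 over all mRNAs. At 42°C it was 0.692 and 0.670 for TPS1, 0.462 and 0.457 for TSL1, and 0.317 and 0.320 for ATH1 (median 0.580 and 0.572). At 46°C it was 0.306 and 0.301 for TPS1, 0.160 and 0.185 for TSL1, and 0.0749 and 0.104 for ATH1 (median 0.201 and 0.217). TPS1 was highest and ATH1 lowest of the 7 at each temperature, without overlap with the other members. The log-odds of pSup (natural log) fell for all 7 members at 42°C, by 1.34 ± 0.12 (TPS1) to 1.58 ± 0.15 (NTH2), with a median of -1.51 where the median of all mRNAs was -1.67 and 99.7% fell. At 46°C all 7 fell with a median of -3.01, where the median of all was -3.31 and 100% fell. All 7 also fell between 46°C and 42°C (99.8% of mRNAs fell).

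Long mRNAs sediment more than short ones, so the log-odds were also centred on mRNAs of similar length in the same lysate. On this scale a positive change means that a transcript stayed in the supernatant more than mRNAs of its length did. At 42°C limma called 0 of 7 members (0.922% of mRNAs called), with TPS1 (0.33 ± 0.08, adjusted p = 0.095) alone at an unadjusted p under 0.05. TSL1, the mRNA induced most, was at -0.14 ± 0.07. At 46°C TPS1 was called, at 0.37 ± 0.08 (0.042), 1 of 7 members, where 4.73% of mRNAs rose. That call was lost without lysate 1 of 30°C (0.38, 0.053) or lysate 1 (0.31, 0.19) or 2 (0.44, 0.0998) of 46°C, and also with the replicate block (0.37, 0.053), without a trend (0.054), with only the groups compared (0.126), or without either 42°C lysate (0.125 and 0.126). Between 46°C and 42°C 0 of 7 were called (0% of mRNAs), with TSL1 (0.20 ± 0.07) at an unadjusted p under 0.05. TPS1 rose on this scale at 46°C in 2 other experiments, which had lysates of their own. In the spike-in experiment, where the log-odds of all 7 members fell (100% of mRNAs fell), its centred log-odds were 0.67 and 0.62 at 46°C, against 0.00 and -0.03 at 30°C (0.66 ± 0.06, 0.0065). TSL1 (0.31 ± 0.07, 0.027) and NTH1 (0.29 ± 0.06, 0.025) rose there as well, 3 of 7, where 15.2% of mRNAs did, and both were lost without either 46°C lysate (TSL1 0.32 and 0.30, adjusted p 0.11 and 0.13, and NTH1 0.31 and 0.27, 0.13 and 0.18). In the mock cells of the CHX experiment TPS1 rose by 0.60 ± 0.10 (0.016), 1 of 7, where 5.29% rose, and was lost without lysate 1 of 30°C (0.66, 0.055) or of 46°C (0.50, 0.088). In the mock cells of the eIF3b and eIF4E experiments TPS1 was at 0.09 ± 0.07 and 0.18 ± 0.08 and was not called.

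**Figure D3:**
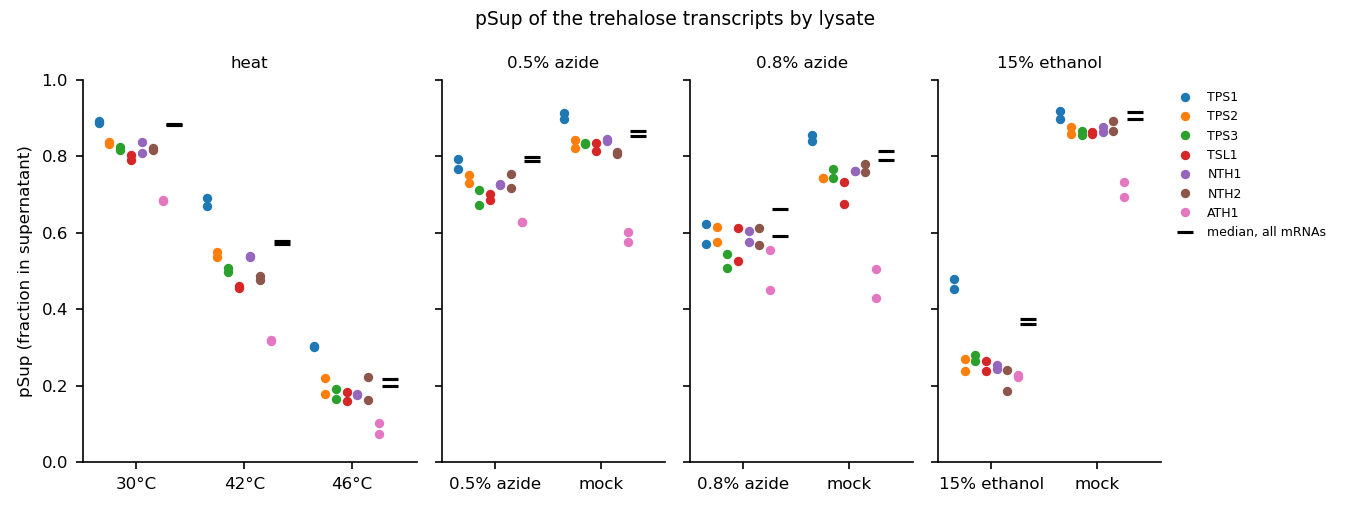
Fraction in the supernatant (pSup) of the 7 mRNAs in each Sed-seq lysate of the heat, 0.5% azide, 0.8% azide and 15% ethanol experiments, one point per lysate, with black bars for the median over all mRNAs. ATH1 is the lowest member in the heat experiment, at 0.687 and 0.684 at 30°C, and TPS1 the highest, at 0.894 and 0.887.

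Azide at 0.5% lowered the pSup of 6 members, and ATH1 did not pass. With 0.5% azide pSup of TPS1 was 0.767 and 0.795, against 0.898 and 0.914 in mock cells, and that of TSL1 was 0.685 and 0.702, against 0.815 and 0.835. ATH1 had a pSup of 0.628 and 0.630 with azide, against 0.575 and 0.603 in mock cells. The log-odds fell for 6 of 7 members (median of the 7 -0.70, of all mRNAs -0.44), where 67.3% fell, and ATH1 was at 0.17 ± 0.08 (adjusted p = 0.11). NTH2 (-0.42 ± 0.10, 0.0095) was not called without azide lysate 1 (-0.33, 0.057). Against mRNAs of similar length, TPS1 fell by 0.59 ± 0.06 (0.015), TPS3 by 0.43 ± 0.07, TSL1 by 0.38 ± 0.06 and NTH1 by 0.36 ± 0.06, while ATH1 rose by 0.44 ± 0.08 (0.024). These 5 of 7, where 24.9% were called, were each lost when any single one of the 4 lysates was left out (adjusted p 0.057 to 0.094).

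With 0.8% azide, pSup of ATH1 was 0.556 and 0.452, against 0.507 and 0.430 in mock cells, so the groups overlapped. The log-odds of the other 6 members fell, where 81.9% of mRNAs did. Without mock lysate 1 or 2, TPS2, TPS3, TSL1, NTH1 and NTH2 were no longer called (adjusted p 0.055 to 0.41), nor was TSL1 without azide lysate 2 (-0.41, 0.086). Against mRNAs of similar length TPS1 fell by 0.55 ± 0.12 (0.04) and ATH1 rose by 0.66 ± 0.12 (0.038), 2 of 7, where 11.2% were called. Both were lost without mock lysate 2 (-0.42, 0.14, and 0.57, 0.11).

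Ethanol at 10% lowered pSup, and at 5% no member was called. TPS1 had a pSup of 0.916 and 0.905 in mock cells, 0.890 and 0.909 at 5% and 0.769 and 0.788 at 10%, and NTH1 one of 0.879 and 0.853 in mock cells, 0.830 and 0.860 at 5% and 0.678 and 0.691 at 10%. At 5%, where the abundance of all 7 rose, limma called 0 of 7 in log-odds (1.52% of mRNAs, 0 of 7 at an unadjusted p under 0.05). At 10% all 7 fell, by 0.68 ± 0.14 (ATH1) to 1.12 ± 0.17 (NTH2), where 97.3% of mRNAs fell, and likewise against 5% (90.5% fell). In the separate 7.5% experiment all 7 fell, by 0.44 ± 0.19 (TPS1) to 0.97 ± 0.22 (TPS3), where 51% fell. None of these was called without ethanol lysate 2 (-0.34 to -0.82, adjusted p 0.13 to 0.53). TPS1, TSL1 and ATH1 were lost without ethanol lysate 1 as well (adjusted p 0.062 to 0.16), and TPS1 and ATH1 without mock lysate 2 (0.22 and 0.20).

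At 15% ethanol the members separated. pSup of TPS1 was 0.4801 and 0.454 with ethanol, against 0.918 and 0.899 in mock cells. pSup of NTH2 was 0.242 and 0.187 with ethanol, against 0.892 and 0.867 in mock cells. pSup of ATH1 was 0.230 and 0.224 with ethanol, against 0.732 and 0.695 in mock cells. All 7 fell, with a median of -2.91 where the median of all was -2.85 and 100% fell. NTH2 fell most (-3.30 ± 0.14), and ATH1 (-2.14 ± 0.13) and TPS1 (-2.43 ± 0.19) least. Against mRNAs of similar length ATH1 rose by 0.67 ± 0.07 (adjusted p = 0.0027) and TPS1 by 0.39 ± 0.05 (0.0046), and NTH2 fell by 0.50 ± 0.09 (0.011), 3 of 7, where 40.4% were called. NTH2 was lost without mock lysate 1 (-0.45, 0.068).

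At the lower doses this centred measure gave weak calls. At 7.5%, ATH1 (0.36 ± 0.10, 0.029) and TSL1 (0.20 ± 0.06, 0.049) rose, 2 of 7, where 23.8% of mRNAs did. ATH1 was lost without ethanol lysate 1 (0.23, 0.11) or either mock lysate (0.35 and 0.36, 0.12 and 0.13), and TSL1 without any lysate (0.16 to 0.23, 0.089 to 0.18). At 10%, NTH2 (-0.27 ± 0.06, 0.047) and NTH1 (-0.23 ± 0.06, 0.049) fell, 2 of 7, where 6.26% did, and both were lost without any lysate (adjusted p 0.073 to 0.18). At 5% 0 of 7 were called (0.513%), with TPS3 (-0.23 ± 0.07) at an unadjusted p under 0.05. Between 10% and 5% 0 of 7 were called (20.9%), with NTH2, TPS1 and TPS2 at an unadjusted p under 0.05. DTT gave 0 of 7 calls in log-odds (0.237%, 0 of 7 at an unadjusted p under 0.05) and 0 of 7 on the centred scale (0%), with NTH2 (-0.20 ± 0.04) at an unadjusted p under 0.05.

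At 46°C pSup was higher with CHX than without it for most members. pSup of TPS3 was 0.296 and 0.302 with CHX, against 0.149 and 0.159 without it, and that of NTH2 was 0.288 and 0.308 with CHX, against 0.192 and 0.206 without it. Log-odds rose for 6 of 7 members, by 0.50 ± 0.18 (TSL1) to 0.86 ± 0.24 (ATH1), where 67.7% of mRNAs rose and the median of all was 0.64. TPS1, at 0.380 and 0.454 with CHX and 0.373 and 0.329 without it, did not pass (0.28 ± 0.16, adjusted p = 0.15). Of the 6, only TPS3 held without any single lysate: TPS2, TSL1, NTH1, NTH2 and ATH1 were lost without CHX lysate 2 (adjusted p 0.059 to 0.20), TPS2, TSL1 and NTH1 without mock lysate 2 (0.051 to 0.18) and ATH1 without mock lysate 1 (0.67, 0.086). At 30°C limma called 0 of 7 (0%), with ATH1 (0.68 ± 0.24) and NTH2 (-0.38 ± 0.13) at an unadjusted p under 0.05. ATH1 had a pSup of 0.694 and 0.721 with CHX at 30°C, against 0.482 and 0.617 without it.

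Heat to 46°C lowered the log-odds of all 7 members both with CHX (99.4% of mRNAs fell) and without it (100%). The difference between the 2 heat responses was called for 6 of 7, from 0.59 ± 0.23 (TPS1) to 0.91 ± 0.19 (NTH2, adjusted p = 0.0074), where 75.4% were higher and the median of all was 0.91. ATH1 (0.18 ± 0.33) did not pass. TPS3 and NTH2 held without any single lysate, TSL1, TPS2 and NTH1 were lost without 4, 3 and 2 of the 8 lysates (adjusted p 0.057 to 0.10), and TPS1 without 6 of them (0.054 to 0.14). Against mRNAs of similar length, CHX gave 0 of 7 calls at 30°C (0%) and 0 at 46°C (3.67%), with ATH1 and NTH2 at an unadjusted p under 0.05 at 30°C and TPS1 at 46°C. With CHX present, 46°C against 30°C gave 0 of 7 on that scale (0%), with TPS1 at an unadjusted p under 0.05. The difference between the heat responses gave 0 of 7 as well (0%), and none at an unadjusted p under 0.05.

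Depletion of eIF3b lowered the pSup of 6 members already at 30°C, and ATH1 did not pass. pSup of TPS1 was 0.604 and 0.513 after depletion, against 0.836 and 0.824 in mock cells. pSup of TSL1 was 0.457 and 0.379 after depletion, against 0.562 and 0.600 in mock cells. pSup of ATH1 was 0.511 and 0.466 after depletion, against 0.504 and 0.465 in mock cells. The log-odds fell for 6 of 7 members, where 92.4% of mRNAs fell, and ATH1 was at 0.01 ± 0.23. TSL1 (-0.66 ± 0.21, adjusted p = 0.0023) was lost without depleted lysate 2 (-0.50, 0.080). Against mRNAs of similar length ATH1 rose by 0.79 ± 0.12 (0.00088), and TPS1 fell by 0.42 ± 0.07 (0.0016). TPS3 (-0.17 ± 0.06, 0.044) and NTH2 (-0.31 ± 0.08, 0.01) fell too, 4 of 7 in all, where 38.8% were called. TPS3 was lost without either depleted lysate (-0.19 and -0.14, 0.080 and 0.18) or mock lysate 2 (-0.12, 0.24), and NTH2 without depleted lysate 2 (-0.25, 0.078) or mock lysate 1 (-0.30, 0.050).

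At 42°C TSL1 stayed in the supernatant of depleted cells more than mRNAs of its length did. pSup of TSL1 was 0.292 and 0.324 after depletion, against 0.237 and 0.281 in mock cells, and the median of all mRNAs was 0.229 and 0.286 after depletion, against 0.505 and 0.498 in mock cells. Centred on length, TSL1 was at 1.02 and 0.81 after depletion, against -0.58 and -0.40 in mock cells (1.40 ± 0.19, adjusted p = 0.00033). TPS2 was at 0.69 and 0.54 after depletion, against -0.11 and -0.06 in mock cells (0.70 ± 0.09, 0.00023). ATH1 was at 0.12 and 0.13 after depletion, against -0.60 and -0.69 in mock cells (0.77 ± 0.12, 0.00054). The groups did not overlap for any of these 3. NTH1 (0.28 ± 0.08, 0.014) and TPS3 (0.25 ± 0.06, 0.0056) rose as well, 5 of 7 in all, where 24.7% of mRNAs did. NTH1 was lost without either depleted lysate (0.26 and 0.29, 0.073 and 0.051) or mock lysate 1 (0.25, 0.075).

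TSL1 and ATH1 had the highest estimates at 46°C, where 5 of 7 were called and 57.8% of all mRNAs. TSL1 changed by 0.92 ± 0.19 (adjusted p = 0.0028), ATH1 by 0.59 ± 0.12 (0.002), TPS2 by 0.40 ± 0.09 (0.0045) and NTH1 by 0.40 ± 0.08 (0.0019). NTH2 fell by 0.20 ± 0.08 (0.044), lost without either depleted lysate (-0.16 and -0.25, 0.19 and 0.057) or mock lysate 1 (-0.13, 0.24). Without centring, 4 of 7 fell at 42°C (TPS1, TPS3, NTH1, NTH2), where 90.3% of mRNAs did, and TSL1 was at 0.24 ± 0.21. At 46°C all 7 fell, where 96.5% did, TSL1 least (-0.75 ± 0.21) and NTH2 most (-1.76 ± 0.21).

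The heat responses of depleted and mock cells were then set against each other on the centred scale. At 42°C against 30°C, 5 of 7 members rose after depletion, where 21.6% of mRNAs did: TSL1 by 1.18 ± 0.19, TPS2 by 0.63 ± 0.09, TPS1 by 0.57 ± 0.07, NTH1 by 0.51 ± 0.08 and TPS3 by 0.38 ± 0.06. In mock cells NTH2 alone was called (-0.28 ± 0.08, adjusted p = 0.043, where 4.77% fell), lost without any single lysate (-0.22 to -0.34, 0.083 to 0.18). The difference between the 2 responses was called for 5 of 7, all higher after depletion, where 10.6% of mRNAs were. It was 1.21 ± 0.27 for TSL1 (0.017), 0.70 ± 0.13 for TPS2 (0.0082), 0.41 ± 0.08 for TPS3 (0.01), 0.39 ± 0.10 for TPS1 (0.026) and 0.38 ± 0.11 for NTH1 (0.04). TPS2 and TPS3 held without any single lysate. TSL1 was lost without lysate 2 of either 30°C group or depleted lysate 1 of 42°C (1.01 to 1.13, 0.054 to 0.068), TPS1 without 5 of the 8 lysates (0.31 to 0.40, 0.053 to 0.10) and NTH1 without 7 (0.25 to 0.41, 0.078 to 0.12).

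At 46°C against 30°C, 5 of 7 rose after depletion on this scale, where 26.6% of mRNAs did: TSL1 by 0.73 ± 0.19 (adjusted p = 0.011), TPS1 by 0.51 ± 0.07, NTH1 by 0.47 ± 0.08, TPS2 by 0.27 ± 0.09 (0.032) and TPS3 by 0.23 ± 0.06. TSL1 was lost without depleted lysate 2 of 30°C (0.65, 0.066), and TPS2 without any single lysate (0.23 to 0.30, 0.067 to 0.14). In mock cells 0 of 7 were called (21.8%), with NTH2 (-0.18 ± 0.08) at an unadjusted p under 0.05. The difference was called for NTH1 (0.50 ± 0.11, 0.0084), TPS1 (0.43 ± 0.10, 0.011) and TPS2 (0.39 ± 0.13, 0.044, lost without 6 of the 8 lysates, 0.26 to 0.42, 0.070 to 0.13), 3 of 7, where 16.4% were higher. TSL1 (0.73 ± 0.27, 0.069) did not pass. Without centring the difference was called for 0 of 7 at 42°C (0.362%, TSL1 at an unadjusted p under 0.05). At 46°C it was called for ATH1 (-0.98 ± 0.32, 0.013) and TPS3 (-0.71 ± 0.30, 0.049), 2 of 7, where 32.7% were lower and the median of all was -0.54. ATH1 was lost without 4 (adjusted p 0.059 to 0.17) and TPS3 without 6 (0.055 to 0.25) of the 8 lysates.

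**Figure D4:**
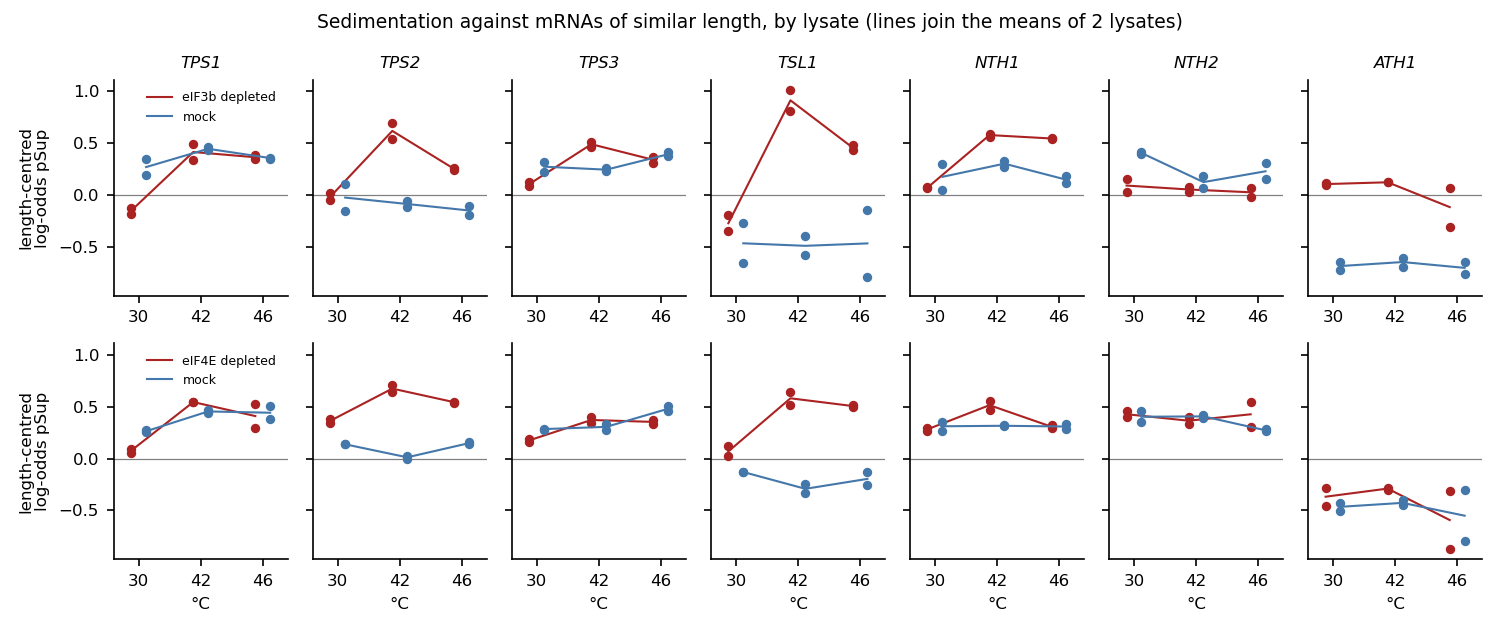
Length-centred log-odds pSup (natural log, 0 is the mean of mRNAs of similar length) of the 7 mRNAs after eIF3b or eIF4E depletion and in mock cells at 30, 42 and 46°C, one point per lysate. TSL1 lies at 1.02 and 0.81 after eIF3b depletion at 42°C, against -0.58 and -0.40 in mock cells.

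On the length-centred scale TSL1 and TPS2 changed most among the members after eIF4E depletion at 42°C and 46°C. At 42°C TSL1 was at 0.52 and 0.64 on the centred scale after depletion, against -0.25 and -0.34 in mock cells (0.87 ± 0.07, adjusted p = 0.0004). TPS2 was at 0.71 and 0.64 after depletion, against 0.00 and 0.03 in mock cells (0.66 ± 0.05, 0.00031). At 46°C TSL1 was at 0.51 and 0.50 after depletion, against -0.26 and -0.13 in mock cells (0.70 ± 0.07, 0.0004), and TPS2 changed by 0.39 ± 0.05 (0.00075). The depleted lysates lay above the mock lysates for both at both temperatures. With NTH1 (0.20 ± 0.05, 0.031), lost without any single lysate (0.16 to 0.24, 0.062 to 0.16), 3 of 7 rose at 42°C, where 8.02% of mRNAs did, and 2 of 7 at 46°C, where 12.7% did. At 30°C TPS2 alone was called (0.23 ± 0.05, 0.02, where 2.43% rose), lost without any single lysate (0.21 to 0.24, 0.081 to 0.12). ATH1, at 0.10 ± 0.19, was not called at 30°C in this strain.

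Heat to 42°C after eIF4E depletion raised 5 of 7 members on the centred scale, where 16.3% of mRNAs rose: TSL1 by 0.51 ± 0.07 (adjusted p = 0.0011), TPS1 by 0.47 ± 0.08, TPS2 by 0.31 ± 0.05, NTH1 by 0.23 ± 0.05 and TPS3 by 0.20 ± 0.05. NTH1 was lost without depleted lysate 2 of 30°C or 1 of 42°C (0.22 and 0.19, 0.063 and 0.072), and TPS3 without 3 of the 4 lysates (0.16 to 0.21, 0.054 to 0.093). In mock cells 0 of 7 were called at 42°C (13.5%), with TPS1, TPS2 and TSL1 at an unadjusted p under 0.05. The difference between the responses was called for 0 of 7 (0.0405%), with 5 at an unadjusted p under 0.05, TSL1 (0.67 ± 0.10) and TPS2 (0.44 ± 0.06) both at an adjusted p of 0.067. At 46°C 4 of 7 rose after depletion, where 19.1% did, TSL1 by 0.44 ± 0.07 (0.0017), TPS1 by 0.33 ± 0.08 (0.0096), TPS2 by 0.18 ± 0.05 and TPS3 by 0.18 ± 0.05. TSL1 held without any single lysate. TPS1 was lost without depleted lysate 1 of 30°C (0.31, 0.056), TPS2 without 2 lysates (0.16 and 0.18, 0.093 and 0.059) and TPS3 without 3 (0.16 to 0.19, 0.062 to 0.10). In mock cells TPS3 alone was called (0.20 ± 0.05, 0.019, where 14.1% rose), lost without 3 of 4 lysates (0.17 to 0.20, 0.068 to 0.092). The difference was called for TSL1 (0.50 ± 0.10, 0.04), 1 of 7, where 1.32% were higher, and was lost without 7 of the 8 lysates (0.44 to 0.55, 0.063 to 0.13).

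Without centring, eIF4E depletion gave 0 of 7 calls at 30°C (0.0405%, 0 of 7 at an unadjusted p under 0.05). TPS3 (-0.67 ± 0.27) and NTH2 (-0.75 ± 0.27) fell at 42°C, 2 of 7, where 69.2% fell, and both were lost without depleted or mock lysate 2 (adjusted p 0.19 to 0.25). At 46°C 5 of 7 fell, where 81.8% did, and TSL1 (-0.17 ± 0.27) and TPS2 (-0.44 ± 0.27) did not pass. These 5 were lost without depleted lysate 1 (adjusted p 0.054 to 0.30), and all but ATH1 without mock lysate 2 (0.052 to 0.19). The differences between the heat responses gave 0 of 7 calls at 42°C (0%) and at 46°C (0.101%), with 0 at an unadjusted p under 0.05. Heat itself lowered the log-odds of all 7 members in each strain and state. In the eIF3b strain 99.4% of mRNAs fell at 42°C after depletion and 99.8% in mock cells, in the eIF4E strain 99.7% fell at 42°C in both states, and at 46°C 100% fell in every case.

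In Polysome-seq the Poly library held mRNAs with 3 or more ribosomes in the heat experiment and all bound fractions in the azide and ethanol experiments. Occupancy in stressed cells has a limit, since condensed RNA can travel to the dense end of the gradient, so the change of Poly against Total is given beside it. TPS1 was the most occupied member at 30°C (0.946 and 0.950) and kept that at 42°C (0.950 and 0.947), against medians of all mRNAs of 0.836 and 0.849 at 30°C and 0.746 and 0.787 at 42°C. TPS3 had an occupancy of 0.881 and 0.896 at 30°C, 0.742 and 0.748 at 42°C, and 0.783 and 0.796 at 46°C. It was the only member whose log-odds were called at 42°C (-1.004 ± 0.187, limma adjusted p = 9.7e-07), 1 of 7, where 54.9% of mRNAs fell, and the median of the 7 was -0.18 against -0.46 for all mRNAs. TSL1 had an occupancy of 0.799 and 0.791 at 30°C, 0.763 and 0.766 at 42°C, and 0.573 and 0.557 at 46°C, where it was the lowest member without overlap.

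At 46°C against 30°C, 5 of 7 members were called in occupancy, where 47.4% were called. TSL1 fell by 1.09 ± 0.18 (adjusted p = 9.1e-09), TPS1 by 0.83 ± 0.18 (3.8e-05), TPS3 by 0.75 ± 0.19 (0.00027) and TPS2 by 0.61 ± 0.19 (0.0035). ATH1 rose by 0.44 ± 0.18 (0.039), lost without any single lysate (0.34 to 0.53, 0.087 to 0.28), and TPS2 was lost without either 30°C lysate or lysate 2 of 46°C (-0.56 to -0.65, 0.057 to 0.11). The members thus had a median of -0.61 where that of all mRNAs was 0.11. Between 46°C and 42°C, TSL1 (-0.92 ± 0.18, 7.7e-07) and TPS1 (-0.83 ± 0.18) fell and ATH1 rose (0.54 ± 0.18, 0.0063), 3 of 7, where 65.4% were called, and ATH1 was lost without lysate 1 of 46°C (0.45, 0.11). ATH1 had an occupancy of 0.758 and 0.763 at 30°C, 0.719 and 0.762 at 42°C, and 0.843 and 0.817 at 46°C.

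Ribosome association, the change of Poly against Total relative to other mRNAs, was tested beside occupancy. At 42°C edgeR and DESeq2 called 0 of 7 (19.9% of transcripts called), with 0 of 7 at an unadjusted p under 0.05. With a term per lysate, which pairs the Poly and Total libraries of each lysate, TPS1 (0.56, adjusted p = 0.0012), NTH1 (0.53, 0.00061) and NTH2 (0.40, 0.01) rose. At 46°C TPS3 (-0.95 ± 0.20, adjusted p = 0.0018) and NTH2 (-0.80 ± 0.28, 0.027) fell, 2 of 7, where 23.1% of transcripts did. The log2 ratio of Poly to Total for TPS3 was 0.05 and 0.17 at 30°C, 0.18 and -0.02 at 42°C, and -0.93 and -0.86 at 46°C. For NTH2 it was 0.02 and 0.00 at 30°C, 0.54 and 0.45 at 42°C, and -1.07 and -0.58 at 46°C. TSL1 did not pass (-0.43 ± 0.28, 0.21). NTH2 was lost without either 30°C lysate (-0.76 and -0.80, 0.13 and 0.12) or lysate 1 of 46°C (-0.53, 0.051). Against 42°C the same members fell at 46°C (TPS3 -0.84 ± 0.20, 0.0091, and NTH2 -1.22 ± 0.27, 0.0076), 2 of 7, where 13% fell, and TPS3 was lost without lysate 1 of 42°C (-0.73, 0.071). The term per lysate gave 5 calls at 46°C against 30°C, adding TPS2 (-0.40, 0.012), TSL1 (-0.42, 0.023) and, upward, TPS1 (0.46, 0.0039). Against 42°C it gave 6, adding TPS2 (-0.69), TSL1 (-0.68), NTH1 (-0.60) and ATH1 (-0.32, 0.042). With the Mono library in place of Poly neither TPS3 (-0.22) nor NTH2 (-0.65, 0.0579) was called at 46°C against 30°C.

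**Figure D5:**
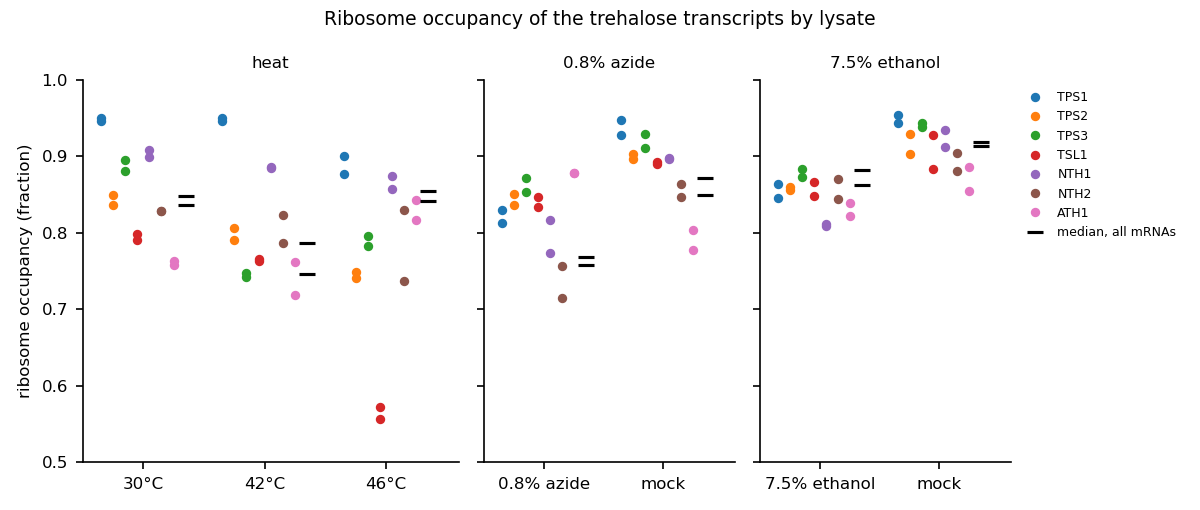
Ribosome occupancy of the 7 mRNAs in each Polysome-seq lysate, with the median over all mRNAs. TSL1 lies at 0.573 and 0.557 at 46°C, and ATH1 with 0.8% azide lies at 0.879 and 0.879, against 0.778 and 0.804 in mock cells.

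With 0.8% azide the occupancy of 6 members fell and that of ATH1 rose, and with 7.5% ethanol that of 5 of 7 fell. Occupancy fell over the mRNAs at large too. The median change in log-odds was -0.61 for the 7 members and -0.58 for all mRNAs with azide. With ethanol these medians were -0.61 and -0.38. With azide TPS1 had an occupancy of 0.831 and 0.813, against 0.948 and 0.928 in mock cells. NTH1 had one of 0.817 and 0.774 with azide, against 0.898 and 0.896 in mock cells. ATH1 had one of 0.879 and 0.879 with azide, against 0.778 and 0.804 in mock cells, and passed from the lowest to the highest of the 7. All 7 were called, where 71.8% were: TPS1 fell by 1.20 ± 0.17 (adjusted p = 0.00019), NTH1 by 0.80 ± 0.15, NTH2 by 0.76 ± 0.15, TPS3 by 0.61 ± 0.16, TPS2 by 0.51 ± 0.15 and TSL1 by 0.44 ± 0.14 (0.02), and ATH1 rose by 0.65 ± 0.14 (0.0026). TPS2, TPS3 and TSL1 were lost without azide lysate 1 (-0.56, -0.69 and -0.49, adjusted p 0.13 to 0.19) or 2 (-0.46, -0.54 and -0.40, 0.26 to 0.30), and NTH1 without azide lysate 2 (-0.67, 0.061). In ribosome association TPS3 was called (0.24 ± 0.07, 0.029), 1 of 7, where 8.49% rose, and was lost without either azide lysate (0.25 and 0.23, 0.073 and 0.096) or mock lysate 2 (0.18, 0.22). The term per lysate called TSL1 (0.40, 9.3e-09) and TPS2 (0.21, 0.0022) as well. In the fit without that term all 7 estimates were positive, from 0.09 ± 0.08 (NTH1) to 0.41 ± 0.16 (TSL1). The median of all transcripts was 0.03.

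With 7.5% ethanol TPS1 had an occupancy of 0.846 and 0.864, against 0.954 and 0.943 in mock cells, and NTH1 one of 0.812 and 0.809, against 0.935 and 0.913. TPS1 fell by 1.15 ± 0.18, NTH1 by 1.05 ± 0.16, TPS3 by 0.80 ± 0.18, TPS2 by 0.61 ± 0.16 (adjusted p = 0.00057) and TSL1 by 0.49 ± 0.16 (0.0052), 5 of 7, where 47.9% of mRNAs fell. NTH2 (-0.33 ± 0.15, 0.062) and ATH1 (-0.32 ± 0.15, 0.059) did not pass, and TPS2 (-0.43, 0.20) and TSL1 (-0.23, 0.56) were lost without mock lysate 1. Ribosome association with ethanol gave 0 of 7 calls by edgeR, DESeq2 and with the term per lysate (1.91%, 0 of 7 at an unadjusted p under 0.05 by edgeR). TSL1, whose abundance rose by 2.69 there, was at 0.17 ± 0.31.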

How the data were processed

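Per the submitters' processing notes, the authors trimmed reads with Trim Galore 0.6.10, aligned them with STAR 2.7.10b (SAMtools 1.16.1) to the R64 genome and quantified transcripts with kallisto 0.48.0, and in the UMI libraries (UMI-tools 1.1.4) they removed duplicates. The Sed-seq heat experiment had single-end reads without UMIs, so its counts include PCR duplicates. The authors deposited estimated counts and TPM per transcript for each of 279 libraries, all of them mapped to a sample. They deposited pSup, a fraction computed with a mixing ratio of supernatant and of pellet fitted to Total under conservation of mass. Recomputed from the deposited counts and ratios, pSup differed by at most 5.6e-16. Ribosome occupancy is the authors' bound fraction after scaling to S. pombe spike-in RNA. The authors' own fold changes were not used. The lists hold locus tags, and all 30 symbols of members and lists matched RefSeq.

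Estimated counts were rounded. Nuclear mRNAs were kept (2.74% to 54.2% of library counts lay outside them), filtered with filterByExpr and fitted with edgeR 4.0.16 (quasi-likelihood, TMM, R 4.3.3), with one fit per experiment over its groups. Log-odds of pSup and of occupancy were fitted with limma 3.58.1 with a trend, with a minimum of 20 estimated counts per lysate, supernatant plus pellet. For the centred measure, each lysate's running mean over log length (width 0.02 of its span) was subtracted. Ribosome association was the interaction of library (Poly or Total) and condition in edgeR. Adjusted p-values are Benjamini-Hochberg over all transcripts of a comparison, called under 0.05. The labels call the replicates biological and do not give more about their source. On simulated counts, 99% of 200 changed genes were recovered for abundance at 42°C (9 false calls of 5428 tested) and 91.5% for association with azide (12 of 5591). On simulated log-odds, 100% were recovered for centred pSup at 42°C (5 of 5063). The planted changes were all of the same size, and in the counts lay in well covered genes. The spread was fixed and the lysates were independent. Recovery of smaller changes was not tested.

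The 7 members and the lists of supply, glycogen, regulator and stress factor genes were chosen with earlier results of these data known. All members are named, at most 3 called genes per list with the largest changes, paralogs beside them where that helps, and the 3 most alike mRNAs per member. Replicate numbers were checked for pairing by the correlation of deviations from group means. In Total libraries every pair exceeded 0.1 in the heat (0.141 to 0.17), CHX (0.366 to 0.683) and eIF3b (0.122 to 0.345) experiments, and these were taken as paired. The spike-in experiment (0.213) and the Sed-seq experiment with the higher azide dose (0.222) have 1 pair each, which exceeded 0.1 too. By this rule they are paired as well, but in the Results they are described without the block. The abundance of the Sed-seq heat experiment is given there without the block too. With the block TPS3 was called at 42°C against 30°C (0.19, adjusted p = 0.013) and at 46°C against 42°C (-0.22, 0.0069). Alternatives were DESeq2 1.42.0 and its size factors, no filter, only the groups compared, the replicate block, at least 100 counts, length bins of 100 mRNAs, no trend, Mono for Poly and leaving out replicates. Leaving out single lysates and scaling to library size were added after the data were seen. Counting intervals were not used, and the spread is that between lysates.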

Additional observations from a re-analysis of the deposited data

Results flagged for a closer look

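For several members the response to heat differed between states of the same experiment, by the test of the difference itself. On the length-centred log-odds scale, the response to 42°C was higher after eIF3b depletion than in mock cells by 1.21 for TSL1, 0.70 for TPS2, 0.41 for TPS3, 0.39 for TPS1 and 0.38 for NTH1. Of all mRNAs 10.6% were higher there. For 46°C the difference was 0.50 for NTH1, 0.43 for TPS1 and 0.39 for TPS2, where 16.4% of mRNAs were higher. After eIF4E depletion the response of TSL1 to 46°C was higher than in mock cells by 0.50, where 1.32% of mRNAs were higher. That call depended on single lysates. On the log-odds scale without centring, the fall at 46°C was smaller with CHX than without it by 0.91 for NTH2, 0.78 for TPS3, 0.74 for TSL1, 0.70 for NTH1, 0.67 for TPS2 and 0.59 for TPS1, and the median over all mRNAs was 0.91. Of all mRNAs 75.4% were higher with CHX, and centred on length 0 of 7 members were called for this difference. After eIF3b depletion the fall at 46°C was larger than in mock cells for ATH1 (-0.98) and TPS3 (-0.71). The median over all mRNAs was -0.54 there, and 32.7% were lower. Each of these differences rests on 2 lysates per group, and the report gives those that single lysates decide.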

How the results depend on the processing

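Most called differences of the members kept their direction and their side of the threshold. Of 132 called in abundance, DESeq2 kept 121, its size factors, no filter and the block 132 each, and library size scaling 125, with 5 no longer called and 2 of opposite sign (CHX at 30°C, NTH1 0.27 and TPS3 0.15). Of 176 called in log-odds pSup, at least 100 counts kept 176, no trend 175 and the block 168. Of 69 called in centred pSup these kept 69, 60 and 64, and length bins 67. All 21 in occupancy and 5 in association were kept by no trend, DESeq2, no filter and the block where these applied, while the Mono library kept 1 of 4 association calls. Fitting only the groups compared kept 90 of 93 in abundance, 128 of 137 in log-odds pSup and 38 of 54 in centred pSup. Leaving out a replicate number everywhere left 1 lysate a group, and values without a test reversed in 0 cases, while 74 in abundance, 20 in log-odds pSup and 14 in centred pSup moved by more than the spread of a difference between single lysates.

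Counts of calls among the members moved as follows. On the centred scale, the heat experiment had 1 call and 0 without a trend, with the block or with only the groups compared. The experiment with 5% and 10% ethanol had 2, and 4 with at least 100 counts, 1 with length bins and 0 with the other 3. The 7.5% ethanol experiment had 2, and 1 without a trend or with the block, and in log-odds 7 against 0 with the block. The eIF4E experiment had 17 centred calls, and 9 with only the groups compared. In abundance, 15% ethanol had 3 and 5 with library size scaling, DTT had 4 and 2 with DESeq2, CHX had 2, 10 with library size scaling and 12 with the block, eIF3b had 16 and 33 with the block, and eIF4E had 23 and 41 with the block. There 10 of 15 pairs of same-numbered lysates correlated above 0.1, so that the number did not pair them. In association the heat experiment had 4 calls, 7 with the Mono library and 14 with a block per lysate, and azide had 1 and 3 with that block.

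Leaving out single lysates, in which a lone lysate is assumed to vary like the other groups, gave these ranges of calls. For centred pSup they were 0 to 1 in heat, 1 to 4 in the spike-in experiment (3 with all lysates), 0 with 0.5% azide (5), 0 to 3 with 0.8% azide (2), 0 with 5% and 10% ethanol, 0 to 1 with 7.5% ethanol, 0 to 1 with CHX (1) and 11 to 18 after eIF4E depletion. For log-odds pSup they were 1 to 6 with 0.8% azide (6), 0 to 7 with 7.5% ethanol, 0 to 4 with DTT (0) and 17 to 26 with CHX (26). For abundance they were 1 to 4 with 15% ethanol, 2 to 5 with DTT, 0 to 3 with CHX and 1 to 4 in Polysome-seq with azide (3). Occupancy gave 3 to 7 with azide (7) and 3 to 6 with ethanol (5), and association 3 to 10 in heat and 0 to 1 with azide.

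The number of all transcripts called, against which the members are read, moved by more than 1.5 times in 91 fits, 33 of them in comparisons with a member called, beside 21.1% (abundance), 18% (log-odds pSup), 38.6% (centred pSup), 23.1% (occupancy) and 73.1% (association) of the fits without a single lysate. In each pair the value of the text's fit comes first. With library size scaling, 42°C against 30°C gave 394 and 712, and the share of higher transcripts among those called moved by more than 10 points in 22 of 40 comparisons, among them CHX (51.5% and 87.5% at 30°C, 50.3% and 89.3% at 46°C), heat at 42°C (82.7% and 38.8%), eIF3b depletion (51.9% and 81.1% at 30°C) and eIF4E depletion (51.3% and 79.2% at 30°C). DESeq2 gave 1284 and 633 with 15% ethanol, and after eIF4E depletion 232 and 134 at 42°C and 369 and 214 at 46°C against 30°C. The block in abundance gave 79 and 417 at 46°C in eIF3b mock cells, 182 and 415 at 46°C in eIF4E mock cells, and 232 and 497 at 42°C and 369 and 732 at 46°C after eIF4E depletion. The block in pSup gave 2627 and 213 with 7.5% ethanol, and on the centred scale 482 and 264 in heat at 46°C, 568 and 1973 with 0.8% azide, 576 and 199 with 10% ethanol and 425 and 764 at 46°C in CHX mock cells. In association it gave 1562 and 2519 for 46°C against 42°C (Mono library 2545), and 923 and 1628 with azide. No trend gave 425 and 196 at 46°C in CHX mock cells, and at least 100 counts raised the count for the eIF4E difference at 46°C to 169. With only the groups compared, abundance gave 394 and 638 at 42°C, 24 and 15 at 46°C and 79 and 51 at 46°C in eIF3b mock cells. Log-odds pSup after eIF4E depletion gave 3418 and 176 at 42°C and 4043 and 1074 at 46°C. Centred pSup gave 482 and 0 in heat at 46°C, 576 and 232 with 10% ethanol, 425 and 267 at 46°C in CHX mock cells, 604 and 33 at 42°C in eIF3b mock cells, and for eIF4E depletion 413 and 0 at 30°C, 887 and 545 at 42°C, 1419 and 419 at 46°C, 1162 and 533 (46°C, mock), 1706 and 1080 (46°C, depleted), and it left 1 call of the difference at 46°C. The cause of these shifts was not tested.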

Other observations

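In the 7 reporter strains, of which 4 carry a hairpin before the reporter (yHG005 to yHG008), 1 none (yHG010) and 2 the leader of GCN4 or a mutated form of it (yHG026, yHG027), with 1 lysate each and no treatment, the members varied among strains by 1.16-fold to 1.76-fold. TPS1 had 268 RPKM in the lowest, 334 in the median and 472 in the highest strain, and TSL1 had 127, 159.5 and 187. TPS2 had 143, 163 and 206, NTH1 113.8, 135 and 187, TPS3 65.8, 70.9 and 86.6, NTH2 15.6, 16.7 and 18.1, and ATH1 8.60, 11.1 and 12.3. pSup ranged 0.835 to 0.874 for TPS1, 0.672 to 0.718 for TSL1 and 0.567 to 0.626 for ATH1, beside medians over all mRNAs of 0.849 to 0.871.

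For CHX at 42°C 1 lysate per state was analysed, so no test was made. pSup of TPS1 was 0.657 with CHX, against 0.526 without it, and that of TSL1 was 0.554, against 0.319. TPS3 had 0.552 with CHX, against 0.261 without it, and ATH1 0.433, against 0.151. With CHX, TPS2 had 0.544, NTH1 0.583 and NTH2 0.487, against 0.311, 0.378 and 0.308 without it. The medians over all mRNAs were 0.57 with CHX and 0.369 without it.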
